A study of Drosophila melanogaster with 24 samples.

Results

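Clock sites that were found in every head library and in some but not all body libraries are described here. They were chosen by joining the peaks of the 8 tagged ChIP-seq peak lists wherever peaks shared 1 bp or more. A joined region was kept when it held a peak in all 4 tagged head lists and in 1 to 3 of the 4 tagged body lists, whether or not a mock list had a peak there. This gave 353 regions out of 21802 joined regions, and out of 1327 head regions, by which is meant regions with a peak in all 4 tagged head lists. The other head regions had a peak in no body list (801 regions) or in all 4 body lists (173 regions). Over all joined regions 23.3% had a peak in 1 to 3 body lists, and over head regions 26.6% did. Without the head CYC replicate 2 list the same rule gave 551 regions.

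CLOCK (CLK) and CYCLE (CYC) are partner transcription factors at the centre of the Drosophila circadian clock. They bind DNA as a pair at E-box elements and switch on period, timeless, vrille, Pdp1 and many output genes in the evening. PERIOD and TIMELESS later return to the nucleus and shut the pair off, and VRILLE and PDP1 feed back on the Clk gene. Heads hold the clock neurons of the brain and the photoreceptors, whereas bodies hold clocks in organs such as the gut, fat body and Malpighian tubules.

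The libraries came from adult Drosophila melanogaster aged 5 to 10 days, kept at 25 °C with 12 h of light and 12 h of dark, and frozen at ZT13, 1 h after lights-off. Heads were sieved apart from bodies, and chromatin was pulled down with V5 antibody beads. The groups were heads of the Clk strain, heads of the cyc strain, bodies of the Clk strain, bodies of the cyc strain, and untagged w- heads and w- bodies as mock pull-downs. Each group had 2 pull-downs, which the design text calls independent biological replicates. How the V5 tag was placed on CLK and CYC is not given in the sources used here, whole heads and bodies mix many cell types, and peak lists offer no marker by which to check the tissue. Heads were sonicated 6 times and bodies 4 times, so sonication and tissue cannot be told apart.

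In heads, the tagged lists held 13729 and 4609 peaks for CLK and 12086 and 4848 for CYC in replicates 1 and 2. In bodies they held 2433 and 1153 peaks for CLK and 3967 and 1276 for CYC. The head mock lists held 12082 and 1726 peaks, the body mock lists 73 and 175, so head mock replicate 1 stood apart and was about as long as the list of head CYC replicate 1. Depth per library is unknown, and a list without a peak at a region shows that none was called there, not that the site was unbound. Each peak carries 2 scores of unstated scale. Peaks were ranked within their own list by the first score, and rank is given as a percentage of the list, with the best peaks near 0% and the weakest at 100%. Peaks with equal scores share a mean rank. Lists differ in length, so ranks from different lists stand side by side and measure no change. Since presence in these 8 lists chose the regions, presence, scores and ranks are described without a test.

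Most of the 353 regions were seen in bodies through the long CYC replicate 1 list. That list held 294 of them (83.3%, 95% interval 79.0 to 87.0), against a peak in that list at 16.8% of all joined regions. Body CLK replicate 1 held 188 (53.3%, 47.9 to 58.6; 10.3% of all joined regions), body CYC replicate 2 held 126 (35.7%, 30.7 to 40.9; 5.68%) and body CLK replicate 2 held 84 (23.8%, 19.4 to 28.6; 5.12%). These counts follow the order of list length, from the longest body list to the shortest. Of the 1327 head regions, 35.2%, 27.2%, 22.5% and 19.4% had a peak in these lists, in the same order. The rule asks for a body peak, so higher shares than over all joined regions follow from the rule and are no result. With the 4 body lists cut to 1153 peaks each, the rule gave 267 regions, and CYC replicates 1 and 2 held 61.8% and 50.6% of them against 46.1% and 39.3% for CLK replicates 1 and 2. All intervals here are Clopper-Pearson and cover counting error only, and regions of a library are not replicates.

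By number of body lists, 131 regions had a peak in 1 list, 105 in 2 and 117 in 3. All 14 possible combinations of body lists occurred. The most frequent was CYC replicate 1 alone, with 87 regions. Next came the 3 lists other than CLK replicate 2, with 64 regions, then the pair of replicate 1 lists, with 55, and the 3 lists other than CYC replicate 2, with 36. Of the 117 regions with 3 body lists, 64 lacked CLK replicate 2, 36 lacked CYC replicate 2, 15 lacked CLK replicate 1 and 2 lacked CYC replicate 1. A region was therefore most often missing from the shortest list.

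**Figure D1:**
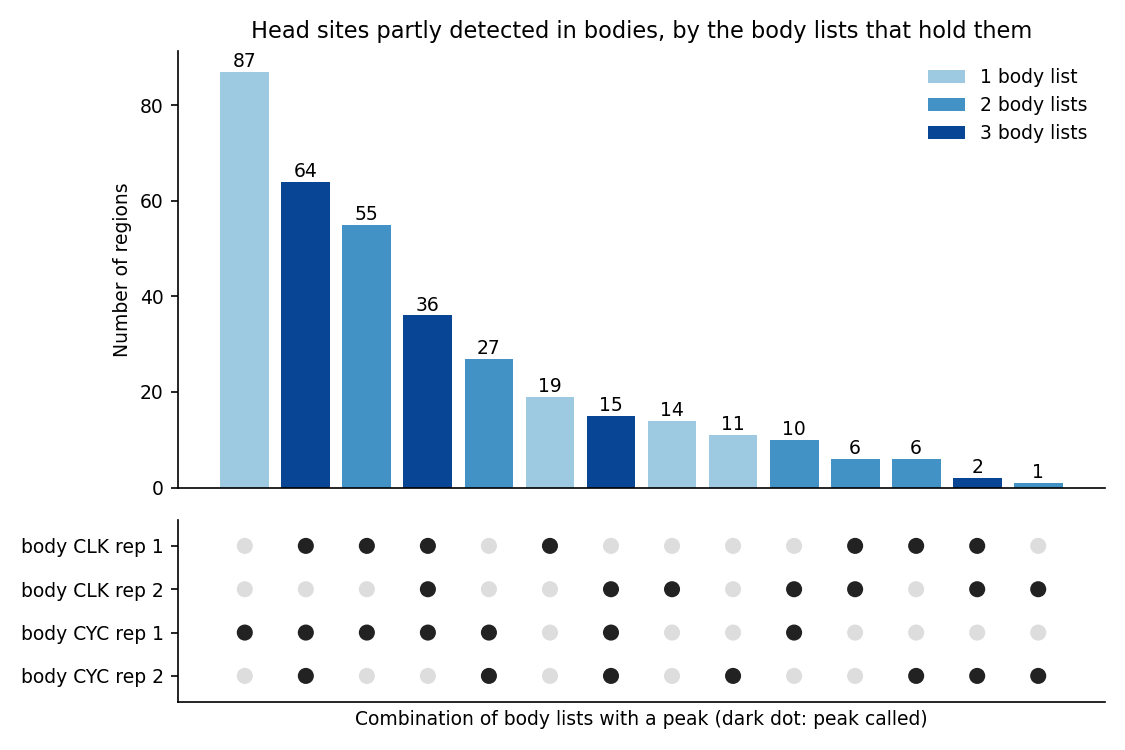
Number of regions (bars, linear axis) for each combination of the 4 tagged body lists; a dark dot below a bar marks a list with a peak, and bar shade gives the number of body lists. The tallest bar, 87 regions, is CYC replicate 1 alone, and the combination of both replicate 2 lists alone has 1 region.

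Splits between body replicates and between factors were both common. A peak in replicate 1 body lists and in no replicate 2 list was found at 161 regions (45.6%, 40.3 to 51.0). The opposite held at 26 regions (7.37%, 4.87 to 10.6), and 166 regions had peaks of both replicates. By factor, 189 regions (53.5%, 48.2 to 58.8) had a CLK and a CYC peak in bodies, 125 (35.4%) had CYC peaks and no CLK peak, and 39 (11.0%) had CLK peaks and no CYC peak. Both CYC body lists and no CLK body list held 27 regions, and both CLK body lists and no CYC body list held 6. The CYC lists of bodies were the longer ones in each replicate, and the part of list length in this imbalance was not tested.

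Along the ranking of heads by the first score, the share of partly detected sites was highest somewhat below the very best regions. When the 1327 head regions were ordered by their mean rank over the 4 head lists, 22 of the best 100 were detected in 1 to 3 body lists (22%, 14.3 to 31.4), while 52 were in all 4 body lists and 26 in none. The count was highest, at 42, in places 201 to 300, where 26 were in all 4 body lists and 32 in none. It was 14 and 15 in places 1001 to 1100 and 1101 to 1200, where 85 regions of each 100 were in no body list. In places 1201 to 1300 it was 21, with 79 in no body list. Ranked by the second score, the 353 regions did not stand between the other classes. Their median mean head rank was then 41.0%, against 35.1% for regions in no body list and 24.9% for those in all 4. In any 1 head list, 19 or 20 partly detected regions had a peak among the 100 best by the first score. The counts were 37 to 59 for regions with all 4 body lists and 18 to 37 for regions with none.

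**Figure D2:**
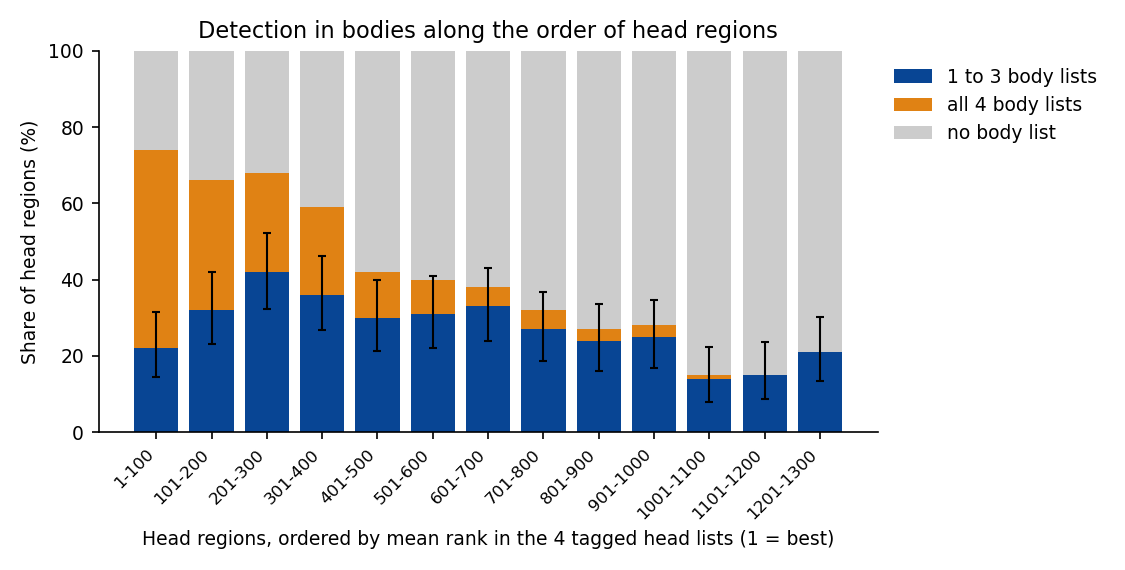
Share of head regions (%) in successive bins of 100 of the head order by the first score (1 is best) with a peak in 1 to 3 body lists (blue, with 95% Clopper-Pearson bars), in all 4 (orange) or in none (grey). The blue share is 22% in places 1 to 100, 42% in places 201 to 300 and 14% in places 1001 to 1100; the last 27 regions of the order are left out.

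By the first score, head regions held by more body lists ranked nearer the top of the head lists. The median of the mean head rank was 29.0% for regions in no body list, 20.5% in 1, 15.3% in 2, 9.11% in 3 and 4.27% in all 4. For the 353 regions together it was 14.8%, with quartiles of 5.82% and 29.8%. Separately by list, the medians of the 353 regions were 9.29% and 18.9% for CLK heads, replicates 1 and 2, and 9.90% and 10.9% for CYC heads. The medians for 1, 2 and 3 body lists were 15.0%, 9.66% and 7.01% in head CLK replicate 1, and 16.5%, 10.5% and 7.49% in head CYC replicate 2. The spread within a class was wide, since the quartiles in head CLK replicate 1 were 3.98% and 29.4% for 1 body list and 3.24% and 15.1% for 3. Ranked by the second score, the order was not kept: the medians of the mean head rank were 35.1%, 42.9%, 38.5%, 40.5% and 24.9% for 0, 1, 2, 3 and 4 body lists. By that mean, only the regions with all 4 body lists stood nearer the top than the regions with none. List by list this varied. In head CLK replicate 2 the second-score medians were 31.1%, 29.6%, 29.5%, 26.1% and 15.2% for 0 to 4 body lists, so the order was kept there. In head CLK replicate 1 they were 14.6%, 29.5%, 30.2%, 34.3% and 18.7%. In head CYC replicate 1 they were 28.1%, 49.4%, 47.1%, 56.0% and 31.9%. Regions in no body list thus stood nearest the top in both replicate 1 head lists. In head CYC replicate 2 the medians were 44.9%, 53.3%, 38.9%, 44.9% and 23.9%.

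**Figure D3:**
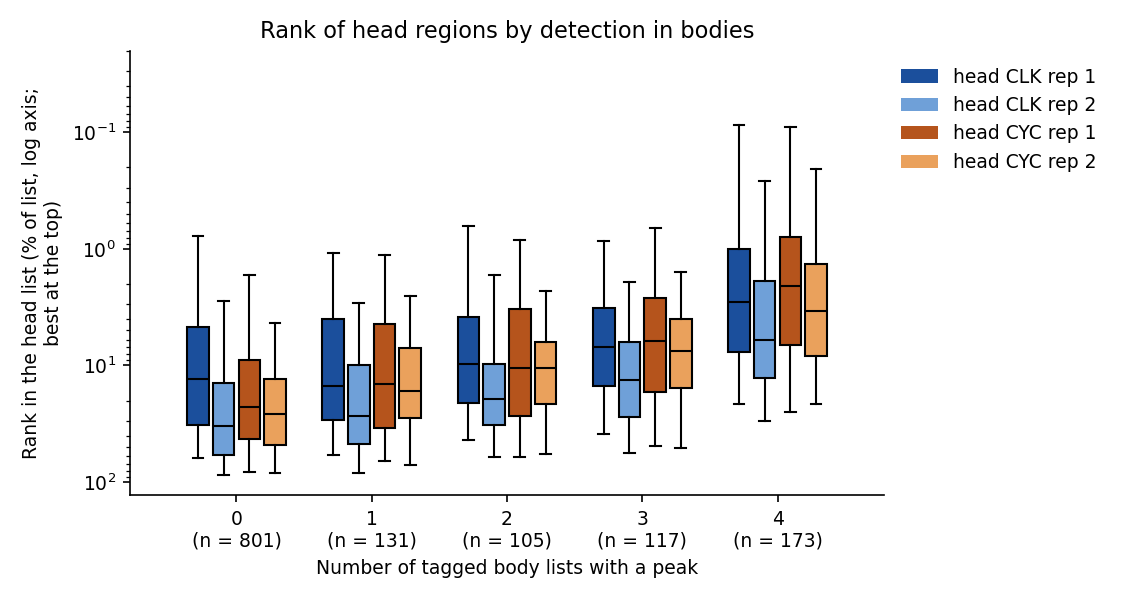
Rank of head regions in each tagged head list (% of the list by the first score, log axis, best at the top) by the number of tagged body lists with a peak; boxes give quartiles and median, and whiskers the 5th and 95th percentiles. Medians in head CLK replicate 2 are 33.0%, 27.1%, 19.3%, 13.5% and 6.09% for 0 to 4 lists.

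At the edges of the rule, peaks lay close to the lowest deposited score of 2. The weakest body peak of a region with 1 body list scored 2.02 (2R 11267683 to 11268023, CYC replicate 1), and the weakest among regions with all 4 body lists scored 2.03 (3R 25410989 to 25411464, CYC replicate 2). Body peaks scoring under 3 were found at 9, 11, 15 and 11 of the partly detected regions in CLK replicates 1 and 2 and CYC replicates 1 and 2. On the head side, 377 regions had a peak in 3 of the 4 head lists and in 1 to 3 body lists and so fell outside. Of these, 202 lacked head CYC replicate 2, 107 head CYC replicate 1, 65 head CLK replicate 2 and 3 head CLK replicate 1. The best of them was 2L 2755013 to 2755620, with a mean rank of 1.22% in its 3 head lists and no peak in head CYC replicate 2. With both scores at 4 or above in every list, the rule gave 108 regions in place of 353.

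The 10 best regions in heads were by construction near the top of the head lists, and their places in the body lists varied widely. The first was X 3590823 to 3591148, whose first score was 472 and 197 for CLK in heads, against 168 and 90.1 for CYC in heads, at ranks 11, 11, 12 and 16. Its body scores were 12.98 and 17.6 for CLK, at ranks 601 and 108, and 16.3 in CYC replicate 1, at rank 374.5. Body CYC replicate 2 had no peak there, and its nearest one lay 966 bp away. It was thus near the top of all 4 head lists, and 9.37% to 24.7% of the way down the 3 body lists that held it.

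The second, 3R 16961942 to 16962264, scored 430 and 161 for CLK in heads, with 130 and 70.0 for CYC, at ranks 13, 15, 13 and 22. Body CLK replicate 1 held it at a score of 2.19, near the end of that list, and body CYC replicate 1 at 9.67. Neither replicate 2 body list had a peak there, and the nearest lay 9042 bp away for CLK and 3700 bp for CYC. The third, 2L 1722390 to 1722788, had head ranks of 16.5 and 21 for CLK, next to 21 and 29 for CYC. It had a single body peak, in CYC replicate 1 at rank 1156.5 with a score of 9.15.

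The next 3 regions also differed in which body lists held them. The fourth, 3R 21950680 to 21951039, stood at places 20 and 25 of the CLK head lists, against 64 and 45 of the CYC head lists, and its body scores were 16.5 and 16.3 for CLK with 11.2 for CYC replicate 1. It lay 404 bp from a region found in all 8 tagged lists. The fifth, 2R 20966809 to 20967222, stood at places 22 and 28 for CLK heads, against 35 and 57 for CYC heads, and its body peaks were in CLK replicate 2 (8.63) and CYC replicate 1 (3.71). The sixth, 3R 6205023 to 6205353, stood at 14 and 34 for CLK heads, against 39 and 110.5 for CYC heads, and had a body peak in CLK replicate 2 alone, with a score of 8.23. The other 3 body lists each had a peak close by, at 152, 191 and 644 bp.

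The remaining 4 were 3R 5775763 to 5776103, 2L 2898906 to 2899228 and, on 2R, 4556416 to 4556763 and 3644078 to 3644444. Of these 3R 5775763 to 5776103 ranked 73 and 45 for CLK heads, against 80 and 85 for CYC heads, and it stood highest in bodies, at ranks 132, 210 and 109 in CLK replicate 2, CYC replicate 1 and CYC replicate 2. The region 2L 2898906 to 2899228 was the only one of the 10 with better ranks in head CYC (56 and 27) than in head CLK (148 and 96) in both replicates, and its only body peak was in CYC replicate 1 at rank 2608.5. By the second score the mean head rank was 33.7% for 3R 5775763 to 5776103 and 19.6% for 2R 4556416 to 4556763, and it lay between 0.682% and 6.50% for the other 8. By the first score, over the 10 regions, ranks in heads ran from 0.0801% to 2.48% of the list and ranks in bodies from 5.29% to 98.4%. Body CYC replicate 1 held 9 of the 10, CLK replicate 2 held 6, CLK replicate 1 held 4 and CYC replicate 2 held 1. Head mock replicate 1 had a peak at all 10, at ranks 181 to 7907 of its 12082 peaks, and the other 3 mock lists had none there.

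**Figure D4:**
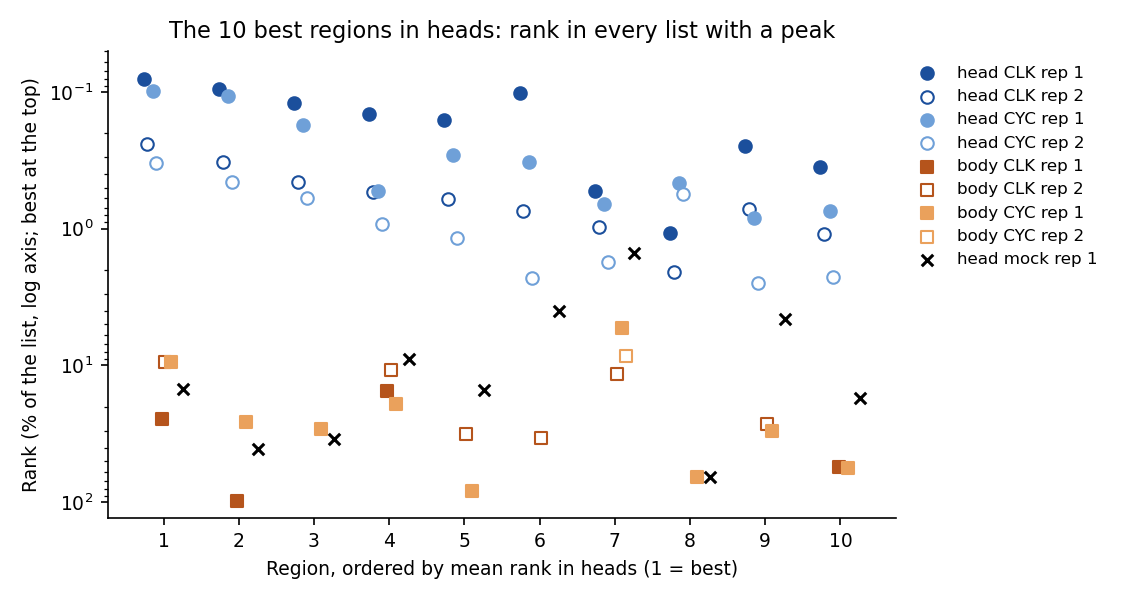
Rank (% of each list, log axis, best at the top) of the 10 best partly detected regions in heads, in every tagged list and in head mock replicate 1; circles are heads, squares bodies, filled symbols replicate 1 and open symbols replicate 2, and a missing symbol means no peak. Head ranks sit between 0.0801% and 2.48%, body ranks between 5.29% and 98.4%.

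Within the body lists that held them, most partly detected sites ranked in the upper 50%. Fewer of them than of the regions with all 4 body lists had a peak among the 100 best. In the lower 50% were 72 of 188 and 24 of 84 for CLK bodies, with 81 of 294 and 35 of 126 for CYC bodies, and in the best 10% were 24, 6, 72 and 19. Their median ranks in CLK bodies were 39.3% and 32.0%, against 6.37% and 12.4% for the 173 regions with all 4 body lists. In CYC bodies the medians were 27.1% and 27.5%, against 3.08% and 9.25%. A peak among the 100 best of the list was held by 5, 4, 8 and 8 partly detected regions in body CLK replicates 1 and 2 and CYC replicates 1 and 2. For regions with all 4 body lists the counts were 61, 69, 77 and 79. Regions with 3 body lists ranked nearer the top than regions with 1, with medians of 11.1% and 53.7% in body CYC replicate 1. In total 8.55% and 7.55% of all body CLK peaks and 8.32% and 10.1% of all body CYC peaks lay in the 353 regions. By the mean first-score rank over the lists that hold a region, 38 of the 353 were in the best 10% of heads and the lower 50% of bodies. By that mean, 16 were in the best 10% of both, and 1 was in the best 10% of bodies and the lower 50% of heads.

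**Figure D5:**
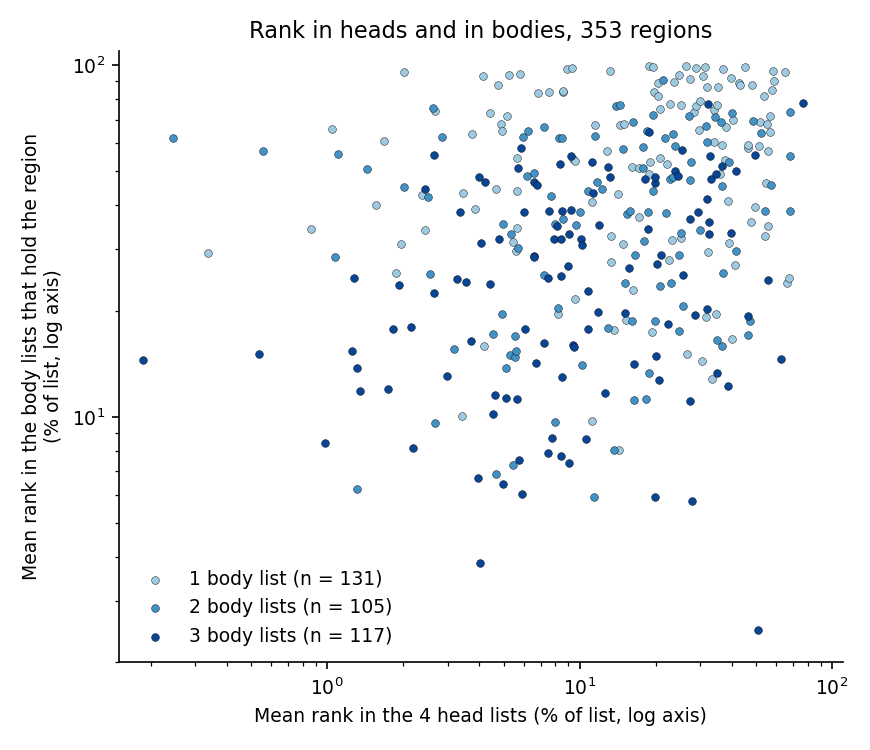
Mean rank in the 4 head lists against mean rank in the body lists that hold the region (% of list by the first score, log axes) for the 353 regions, shaded by the number of body lists. Regions with 3 body lists reach the lowest body ranks, and a single point at a head rank of 50.9% has a body rank of 2.48%; head and body lists differ in length.

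That single region was 3R 17661469 to 17661842. Its head scores were 3.85 and 2.27 for CLK, with 4.23 and 4.78 for CYC, at ranks 7962, 4415, 3732.5 and 911. Its body scores were 52.9 for CLK replicate 1, with 45.5 and 40.0 for CYC, at ranks 44, 74 and 48, and body CLK replicate 2 had no peak. No mock list had a peak there. It was thus the best of the regions with 3 body lists by body rank. In heads its CLK peaks stood in the lower 50% of their lists and its CYC replicate 2 peak stood higher, at 18.8%. Its mean head rank was 50.9% by the first score and 36.2% by the second, so it stood in the lower 50% of heads by the first score only.

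Among the 10 best regions in bodies with 3 body lists, 5 lacked CYC replicate 2, 4 lacked CLK replicate 2 and 1 lacked CLK replicate 1. The second, X 12695450 to 12695786, had head ranks of 319 and 241 for CLK and 327 and 285 for CYC, and body ranks of 99 and 48 for CLK and 131 for CYC replicate 1. Its mean rank was 4.03% in heads and 3.84% in bodies, and no mock list had a peak there. By contrast, by the first score the regions 3R 4354517 to 4354855 and X 21193465 to 21193787 had mean ranks of 27.9% and 20.0% in heads and of 5.75% and 5.91% in bodies. By the second score their mean head ranks were 58.7% and 28.8%, against 12.5% for X 12695450 to 12695786.

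The rest of these 10 had first-score mean ranks of 3.97% to 9.11% in heads and of 6.05% to 7.75% in bodies. Their second-score mean head ranks were further down, from 30.9% to 55.8%. On 3L these regions were 3320490 to 3320819, 7354140 to 7354480, 15487074 to 15487423 and 18178648 to 18179001. The others were on 2L (5306473 to 5306877) and on 3R (4637029 to 4637787). The region 2L 5306473 to 5306877 lay 662 bp from a region with all 8 lists and was the one lacking CLK replicate 1, whose nearest peak was 696 bp away. The region 3R 4637029 to 4637787 lay 1160 bp from such a region. Head mock replicate 1 had a peak at 4 of the 10.

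The best region in heads by the first score was also picked for each combination of body lists. The only region held by both replicate 2 body lists alone was X 9494488 to 9495115, at places 76 and 77 of the CLK head lists, against 99 and 130 of the CYC head lists. The best region with body CYC replicate 2 alone was 3R 17406331 to 17406719, at a mean head rank of 1.87%, and the best with all but CYC replicate 1 was X 7601274 to 7601614, at 3.25%. The best with CLK replicate 1 alone was 2R 20635000 to 20635801 (3.74%), with both CLK lists alone 2L 10851394 to 10851797 (4.99%), and with CLK replicate 1 and CYC replicate 2 the region 3R 26885618 to 26886080 (14.4%). For the more frequent combinations of CYC replicates 1 and 2 and of all but CLK replicate 2 it was 3R 5244937 to 5245265 (1.31%) and X 19397498 to 19397947 (1.25%). By the second score the mean head ranks were 18.6% for X 9494488, 6.30% for 3R 17406331, 38.7% for X 7601274, 15.9% for 2R 20635000, 12.1% for 2L 10851394, 41.0% for 3R 26885618, 39.2% for 3R 5244937 and 5.11% for X 19397498, each named by its start. At the other end, 3L 13487636 to 13488111 had the lowest mean rank in heads, 76.4%, with head scores of 2.96 and 3.04 for CLK, against 2.74 and 2.22 for CYC, and it had peaks in 3 body lists.

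As a percentage of its list, and with CLK and CYC lists of unequal length, CLK had the better rank in heads at 189 of 353 regions in replicate 1 (53.5%) and at 122 in replicate 2 (34.6%). Among regions in no body list CLK had the better rank at 69.8% and 44.7%, and among regions in all 4 body lists at 43.9% and 27.7%. In both replicates the partly detected regions fell between these. The 39 regions with CLK but no CYC peak in bodies had better CLK than CYC ranks in heads at 27 regions in replicate 1 (69.2%, 52.4 to 83.0) and 19 in replicate 2 (48.7%, 32.4 to 65.2). The 125 regions with CYC but no CLK peak in bodies had them at 61 (48.8%, 39.8 to 57.9) and 35 (28.0%, 20.3 to 36.7). The mean head ranks had medians of 28.8% for the regions with CLK alone and 15.0% for those with CYC alone, and a mock peak was present at 27 (69.2%) and 58 (46.4%) of them.

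Since regions were built from overlapping peaks of 228 to 322 bp, head and body peaks of a region had to lie near each other, and their distances are a description. Midpoints of the best head and body peak of the same factor and replicate number were a median of 34 and 31.5 bp apart for CLK and 32 and 33.5 bp for CYC. Midpoints lay within 50 bp of each other at 62.2% and 67.9% of regions for CLK and at 65.6% and 72.2% for CYC. In regions with all 4 body lists the medians were 24 and 31 bp for CLK and 14 and 24 bp for CYC. Within heads, CLK and CYC midpoints of the partly detected regions were 15 bp apart in replicate 1 and 30 bp in replicate 2. At each of the 353 regions a body peak overlapped a head peak directly, and at 315 every body list involved overlapped all 4 head lists directly. The joined regions had a median width of 375 bp, and 77 of them held more than 1 peak of the same list.

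Where a body list had no peak at a partly detected site, it had one close by more often than at head regions found in no body list. The nearest peak of a list without one lay within 1000 bp at 46 of 165 such regions for CLK replicate 1 (27.9%, 21.2 to 35.4) and at 43 of 269 for CLK replicate 2 (16.0%, 11.8 to 20.9). For CYC the counts were 26 of 59 in replicate 1 (44.1%, 31.2 to 57.6) and 35 of 227 in replicate 2 (15.4%, 11.0 to 20.8). For the 801 regions in no body list the shares were 7.37% and 3.87% for CLK and 12.6% and 4.99% for CYC. These shares follow the same body lists that chose the regions and are given as a description.

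Mock pull-downs, which the rule did not use, had a peak at 181 of the 353 regions (51.3%, 45.9 to 56.6), against 41.6% of all joined regions. Of the regions in no body list 65.8% (62.4 to 69.1) had a mock peak, and of those in all 4 body lists 46.2% (38.6 to 54.0). Nearly all came from head mock replicate 1, with a peak at 173 of the 353 (49.0%, 43.7 to 54.4; 39.3% of all joined regions). Head mock replicate 2 had a peak at 30 (8.50%; 4.65% of all joined regions), body mock replicate 1 at 2 (0.567%; 0.243%) and body mock replicate 2 at 1 (0.283%; 0.372%). Without head mock replicate 1 the share with any mock peak was 8.78%, and with all 4 mock lists and both scores at 4 or above it was 13.9%. That list is long, and its part in the share was measured only by leaving it out.

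In each class, the share with a head mock replicate 1 peak was highest in the best 200 head regions by the first score, a difference that was not tested. In the best 200 head regions 39 of 54 partly detected regions had one (72.2%, 58.4 to 83.5), as did 75% of those in no body list and 52.3% of those in all 4. In places 201 to 500 the shares were 43.5%, 61.8% and 26.2%, and in places 501 to 1327 they were 45.5%, 64.1% and 30.8%. Of the best 50 partly detected regions in heads, 37 had a mock peak.

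With mock regions removed, 172 partly detected sites were left. Their median mean rank was 16.2% in heads and 34.9% in bodies, against 13.2% and 43.4% for the 181 with a mock peak. Of the 172 regions, 149 (86.6%) were in body CYC replicate 1, 76 (44.2%) in CYC replicate 2, 91 (52.9%) in CLK replicate 1 and 32 (18.6%) in CLK replicate 2. Among the 181 with a mock peak CYC replicate 2 held 27.6% and CLK replicate 2 held 28.7%. No test was made of these differences, since regions of the same libraries are not replicates.

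The sites were spread over all main chromosome arms. There were 102 on 3R (28.9%, 24.2 to 33.9), against 27.0% of head regions and 23.1% of all joined regions. There were 70 on 2L (19.8%, against 19.2% and 17.9%), 69 on 3L (19.5%, against 20.2% and 20.2%), 56 on 2R (15.9%, against 17.2% and 18.4%) and 54 on X (15.3%, against 14.4% and 16.0%). The shares on 2L, 3L, 2R and X had intervals that held both background shares, and that on 3R held the share of head regions. Chromosome 4 had 2 (0.567%, 0.0687 to 2.03), against 2.03% of head regions and 4.00% of all joined regions. It had 25 of the 801 regions in no body list (3.12%, 2.03 to 4.57) and 0 of the 173 in all 4, which allows a share of up to 2.11%. Of the 353, 0 lay on a heterochromatin scaffold or chromosome M, which allows up to 1.04%. The share was 0.440% of all joined regions, and 0 of the 1327 head regions lay there. X held 13 of the 131 regions with 1 body list (9.92%, 5.39 to 16.4) and 23 of the 117 with 3 (19.7%, 12.9 to 28.0), intervals that overlap.

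Most partly detected sites had no other partly detected site within 5000 bp. The nearest head region of any kind was a median of 7484 bp away. It lay within 5000 bp for 151 of the 353 (42.8%, 37.6 to 48.1), against 36.2% of regions in no body list and 56.1% of those in all 4. The median gap was 53572 bp to the nearest other partly detected region, 214073 bp to the nearest region with all 8 lists and 26739 bp to the nearest head region in no body list, classes that differ in size. A region in no body list lay within 5000 bp of 69 of them (19.5%, 15.5 to 24.1). The nearest other partly detected region lay within 5000 bp for 82 of them (23.2%, 18.9 to 28.0), and the nearest region with all 8 lists for 42 (12.0%, 8.76 to 15.8) of the 351 on arms that had such a region. Of the 801 regions in no body list, 9.74% had a partly detected region that near and 4.51% a region with all 8 lists. For the 173 regions in all 4 body lists the shares were 31.8% and 30.1%. Joined to each other by gaps of at most 5000 bp, 271 partly detected regions had no partner, 25 runs had 2 members, 6 had 3, 1 had 4 and 2 had 5.

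The 3 runs with the most members differed in which body lists held them. On 3R, 5 regions lay between 5242533 and 5248433, a span of 5900 bp. The best in heads by the first score, 3R 5244937 to 5245265, scored 177 and 70.1 for CLK heads, against 40.2 and 18.2 for CYC heads, and in bodies it had CYC peaks alone, of 28.5 and 21.4. By the second score 3R 5242533 to 5242872 had the better mean head rank, at 32.3% against 39.2%. This region and its neighbours 3R 5243839 to 5244686 and 3R 5247458 to 5248433 also had body peaks of CYC alone, with scores of 3.32 to 7.27, and 3R 5246754 to 5247202 had a body peak of CLK replicate 2 alone, at 2.48.

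On X, 5 regions spanned 10835 bp between 9484280 and 9495115. Side by side at its end, 199 bp apart, were X 9493932 to 9494289, held by both CLK lists and CYC replicate 1, and X 9494488 to 9495115, held by the replicate 2 lists alone. The other 3, X 9484280 to 9484857, X 9484986 to 9485585 and X 9488910 to 9489537, had mean head ranks of 10.8%, 67.7% and 36.9% and replicate 1 body peaks alone. On 3L, 4 regions spanned 10136 bp between 16993363 and 17003499, with mean head ranks of 4.17% to 12.0%. The best of these in heads by either score, 3L 16997618 to 16997956, had a body peak in CYC replicate 1 alone, and the other 3 had peaks in 3 body lists each.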

How the data were processed

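The data are 12 peak lists, 1 for each V5 pull-down. The 12 inputs have no list of their own. Reads were mapped with Bowtie 0.12.7 to dm3, per the submitters' processing notes. Each deposited list is named for 1 pull-down and its matching input, so lists are per replicate. Neither the peak caller nor the meaning of the 2 values per peak is stated in the labels. Both deposited values are treated as a score of unknown scale, at least 2 in every list. Peaks of a list share 1 width, from 228 to 322 bp. Coordinates are printed as the lists give them.

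Regions were built from peaks sharing 1 bp or more. A region's value in a list is that of its best peak by the first score. Shares have Clopper-Pearson 95% intervals, and depth is unknown, so no interval covers library noise. No test between groups was made, because the rule used the lists described. The regions, classes and the rule for named regions were chosen with earlier results of these data known. Named regions are the 10 best in heads, the 10 best in bodies with 3 body lists, the best of each combination of body lists, the weakest in heads and the 3 runs that have the most members, with gaps of at most 5000 bp. No dm3 genome or annotation was used, so genes and sequences are not given. Python 3.11.15, numpy 2.4.6, scipy 1.17.1 and matplotlib 3.10.9 were used, and joining was checked on simulated lists. Alternatives were other overlap rules, equal list lengths, a score minimum of 4, ranks by the second score, mock regions removed, either replicate alone and each library left out.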

Additional observations from a re-analysis of the deposited data

How the results depend on the processing

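The number of regions, 353, stayed within 1.5 times under the other overlap rules and with shortened head or body lists. It also did so with replicate 1 lists alone (478). Of the 353, 245 (69.4%) were found again with shortened body lists and 166 (47.0%) with replicate 1 lists alone. With the lists of 1 replicate, the rule keeps regions in 1 of 2 body lists. With replicate 1 lists alone, the 155 regions in both replicate 1 body lists and the 26 in neither thus fall outside it. Values from either replicate alone therefore reflect a changed rule as well as fewer lists. The number was 107 with all 8 lists cut to 1153 peaks, 108 with both scores at 4 or above, 172 without mock regions and 227 from replicate 2 lists alone. Leaving out single libraries gave 265 to 551, with the highest value without head CYC replicate 2. The share with a mock peak was 60.7% with all 8 lists cut, 13.9% at scores of 4 or above, 45.2% with midpoints joined within 100 bp and 40.5% from replicate 2 lists alone. Leaving out single libraries gave 8.78% to 54.2%, the lowest without head mock replicate 1. The median head rank of 14.8% was 4.99% with all 8 lists cut, 4.41% at scores of 4 or above, 9.18% with head lists cut to 4609 peaks, 22.6% from replicate 1 lists alone and 41.0% by the second score. Without single libraries it ran from 12.9% to 18.3%. The median body rank of 38.4% was 18.4% with all 8 lists cut, 23.7% with body lists cut, 15.9% at scores of 4 or above, 53.0% from replicate 1 lists alone and 32.7% from replicate 2 lists alone. Without single libraries it ran from 34.1% to 42.7%. With body lists cut to 1153 peaks, CLK held 46.1% and 39.3% and CYC 61.8% and 50.6% of the regions. Without mock regions CLK replicate 2 held 18.6% and CYC replicate 2 held 44.2%. Shortened or filtered lists drop the weakest peaks by construction, and for the second score the cause was not tested. Of 41 named regions ranked by the second score, 39 had a worse mean head rank. No paired analysis was possible because no result comes from a test, a choice made since presence in these lists chose the regions.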
